A study of Mus musculus with 2 samples.

Results

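Chemokine receptors are membrane proteins of blood, vessel and tumor cells that sense chemokines, small secreted proteins that guide cell migration. Most of them signal through G proteins and draw cells up a chemokine gradient, while atypical receptors such as Ackr3 take up chemokine without that signal. Different leukocytes are known to carry different sets, with Cxcr2 on neutrophils, Ccr2 on inflammatory monocytes, Cx3cr1 on monocytes and macrophages, Ccr7 on mature dendritic cells and naive T cells, and Cxcr3 and Cxcr6 on activated T cells. The 9 receptors described here (Ccr1, Ccr2, Ccr7, Cxcr2, Cxcr3, Cxcr4, Cxcr6, Cx3cr1 and Ackr3) were chosen by their gene symbol from the 32285 genes of the count matrices, and all 9 symbols had a row.

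The tumors came from mouse KPCA ovarian cancer cells, which carry Trp53R172H and overexpress Ccne1 and Akt2. Both cell lines descended from the clone KPCA.C and lack Fst, the gene of the activin-binding protein follistatin. KPCA.FSTKO is that knockout line, and KPCA.FSTKO_hFSTL3 is a single geneticin-selected clone of it that expresses human FSTL3 from a pcDNA3.1 plasmid. Omental tumors of female C57BL/6J mice, 12 to 16 weeks old, were taken at day 10 after grafting, and 4 tumors per genotype were pooled into 1 droplet library. Each genotype was thus sequenced once, no test between genotypes was possible, and every interval below is a 95% interval that covers counting error only. After the filters, KPCA.FSTKO held 6777 barcodes and 142160061 unique molecular identifiers (UMIs, each counting 1 captured transcript), and its median barcode had 17253. KPCA.FSTKO_hFSTL3 held 4041 barcodes and 69751304 UMIs, 15071 in the median barcode. Mitochondrial transcripts made up 3.54% of UMIs in the median barcode of KPCA.FSTKO and 10.7% in that of KPCA.FSTKO_hFSTL3, and 11 of the kept barcode sequences occurred in both libraries.

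Barcodes were placed in cell classes by gates, each a number of marker genes that had to be present, with no chemokine or chemokine receptor among the markers. In KPCA.FSTKO the gates held 888 macrophage/monocyte, 113 neutrophil, 36 dendritic, 70 T, 7 NK, 24 B and 49 other leukocyte barcodes, 1187 leukocytes in all or 17.5% of the library. A further 95 barcodes were endothelial, 373 stromal, 3527 cancer and 80 erythroid. Of the markers the gates were drawn on, C1qa had a UMI in 94.9% of macrophage/monocyte barcodes, S100a9 in 96.5% of neutrophil, Cd3g in 90% of T cell, Pecam1 in 89.5% of endothelial and Col1a1 in 98.7% of stromal barcodes. Others were scarce. In the 7 NK barcodes Klrb1c and Klrk1 each had a UMI in 85.7%, but Klra8, Gzma and Eomes were at 0. Klra4, a listed marker that was left out of the gate, was also at 0. In the dendritic gate H2-DMb2 and Kmo had one in 75% and 69.4%, and Cd209a and Siglech in 11.1% and 5.56%. In the B cell gate Ebf1 and Cd79a had one in 91.7% and 83.3%. Monocyte-associated markers in the macrophage/monocyte gate ranged from Ly6c2 and Plac8, with a UMI in 3.38% and 8.78% of its barcodes, to Chil3 and F13a1, in 67.4% and 79.3%. Krt8 and Hmga2 had a UMI in 97.2% and 97.9% of cancer barcodes, Krt19, Msln and Krt7 in 94.3%, 93.7% and 70.6%, and Pax8, Epcam and Wt1 in 17.8%, 1.96% and 1.19%, for a line labelled as fallopian tube epithelium. Gate edges were broad for some classes. At the required number of markers were 92 macrophage/monocyte barcodes, and 141 were 1 marker short, for 1036 that passed. These numbers were 852 and 760 for the cancer gate, of which 3841 passed. They were 21 and 389 for the dendritic gate, of which 51 passed, and 9 and 468 for the B cell gate, of which 31 passed.

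The library KPCA.FSTKO_hFSTL3 stood apart. In it 3325 barcodes, 82.3%, carried at least 8 of 13 markers of pancreatic acinar cells, the enzyme-secreting cells of an organ beside the omentum, against 40 barcodes in KPCA.FSTKO. Of these 3325, 84.5% also passed at least 2 of the leukocyte, endothelial, stromal, cancer and erythroid gates, so that they could not be given to 1 cell class and were kept apart. This left 164 leukocyte barcodes, 135 of them macrophage/monocyte, with 13 endothelial, 64 stromal and 239 cancer barcodes. For that reason most of what follows describes KPCA.FSTKO. The deleted gene Fst was counted at 5.13 CPM (a gene's UMIs per 1000000 UMIs of its gate) in the cancer gate of KPCA.FSTKO and at 7.93 CPM in that of KPCA.FSTKO_hFSTL3, against 117 and 160 CPM in their stromal gates. These counts tag the end of the transcript and the deleted part of Fst is not given in the sources used here, so they do not check the knockout.

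The receptors were mostly leukocyte transcripts, with Ackr3 as the exception. Of 16388 UMIs of the 9 receptors in KPCA.FSTKO, 53.2% (52.4 to 54.0) lay in leukocyte gates, and without Ackr3 the share was 81.9%. By total UMIs the order was Ackr3 with 6759, Ccr1 with 4117, Ccr2 with 2434, Cx3cr1 with 1658, Cxcr4 with 788, Cxcr2 with 223, Cxcr6 with 190, Ccr7 with 184 and Cxcr3 with 35. Macrophage/monocyte barcodes held 87.8% of Ccr2, 75.9% of Ccr1, 65.6% of Cxcr4 and 60.4% of Cx3cr1, neutrophils held 64.6% of Cxcr2, dendritic barcodes held 61.4% of Ccr7, and T and NK barcodes together held 51.4% of Cxcr3 and 44.7% of Cxcr6. Ackr3 had 75.0% of its UMIs in the cancer gate, which held 104797270 of the library's 142160061 UMIs.

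**Figure D1:**
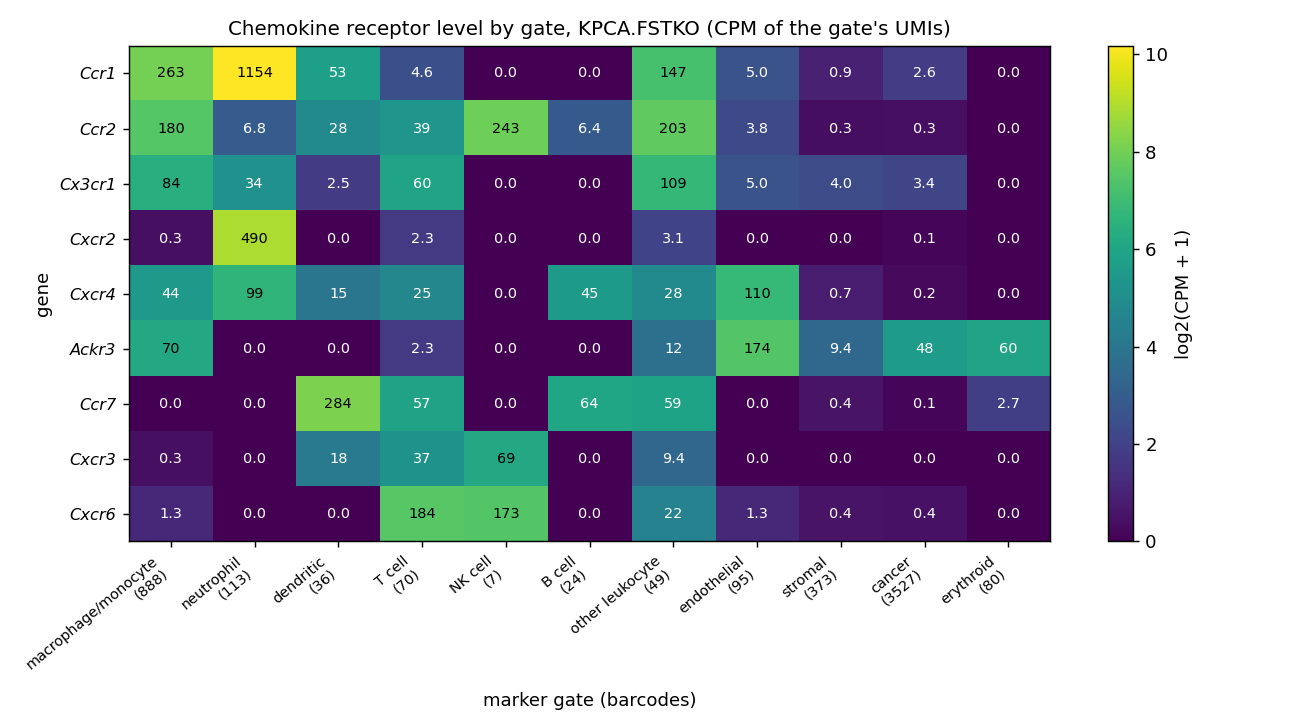
Level of the 9 receptors (rows) in each marker gate of KPCA.FSTKO (columns, barcodes in brackets), as CPM in the cells and as log2(CPM + 1) in the colour. Ccr1 and Cxcr2 were highest in neutrophils at 1154 and 490 CPM, Ccr7 in dendritic barcodes at 284 CPM, and Ackr3 was the only row above 10 CPM in the cancer gate.

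Set against the cancer gate, 8 of the 9 receptors were more than 2-fold higher in leukocytes of KPCA.FSTKO, where 20.9% of the 16736 genes with at least 20 UMIs were. The receptors' median log2 ratio was 6.64, against -0.30 over all genes tested. Ccr2 had the widest gap in the main setting, 166 against 0.33 CPM, a log2 ratio of 8.96 (8.48 to 9.48). The wide interval of Cxcr3, 5.38 to 13.3, spanned that value. With the mean of per-barcode CPM, Ccr2 was 7.96, below Cxcr3 at 9.76 and Cxcr2 at 8.38. Cxcr6 had the smallest of the 8 in the main setting, 7.93 against 0.41 CPM, a log2 ratio of 4.27 (3.75 to 4.82). Its interval held the value of Cx3cr1, 4.55 (4.38 to 4.73). Cx3cr1 was the lower of these with clusters named by the same markers (4.31 against 4.47) and with the mean of per-barcode CPM (4.57 against 4.78). Ackr3 was the receptor that did not pass, at 62.1 CPM in leukocytes and 48.4 CPM in cancer barcodes, a log2 ratio of 0.36 (0.25 to 0.47) that became -0.05 with the mean of per-barcode CPM. In KPCA.FSTKO_hFSTL3 the log2 ratio was 7.14 (6.47 to 7.90) for Ccr1, 9.29 (8.06 to 10.9) for Ccr2, 6.44 (5.04 to 8.34) for Cxcr4 and 5.69 (5.15 to 6.28) for Cx3cr1, and Ccr7 had 24 UMIs, all from 1 barcode, against none. Cxcr2, Cxcr3 and Cxcr6 had too few UMIs there, and Ackr3 again lay close to even at 0.37 (0.11 to 0.63).

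Of the genes, 4 lie on mouse chromosome 9 (build GRCm38, GENCODE annotation). Cxcr6 (chr9:123806475-123811760), Ccr1 (chr9:123962124-123968692) and Ccr2 (chr9:124101950-124113557) fall in a span of 307 kb that also holds Xcr1 and Ccr3. The 3 receptors in this span differed in where they were found: Ccr1 was highest in neutrophils, Ccr2 was nearly absent there, and Cxcr6 was a T cell transcript. Cx3cr1 lies apart on the same chromosome (chr9:119901616-120069879). Cxcr2 (chr1:74153989-74161246), Ackr3 (chr1:90203980-90216751) and Cxcr4 (chr1:128588199-128592293) are on chromosome 1, Ccr7 (chr11:99144196-99155077) on chromosome 11 and Cxcr3 (chrX:101731535-101734269) on the X chromosome. All 9 are annotated as protein coding.

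Neutrophils were marked by Ccr1 and Cxcr2. Ccr1, a receptor for Ccl3, Ccl5, Ccl6 and Ccl9, reached 1154 CPM (1035 to 1284) with a UMI in 92 of 113 neutrophils, against 263 CPM (254 to 273) and 742 of 888 barcodes in the macrophage/monocyte gate. Neutrophils were therefore 4.38-fold (3.91 to 4.90) above macrophages in Ccr1. Neutrophil barcodes were shallow, with a median of 2605 UMIs against 12764.5 in macrophages, and after thinning each barcode to 1000 UMIs Ccr1 was found in 63.6% of neutrophils, 21.8% of macrophages and 0.40% of cancer barcodes. Below them came other leukocytes at 147 CPM and dendritic barcodes at 52.8 CPM, and each step down to the dendritic gate and below it was separated. Endothelial, T and cancer barcodes followed at 5.02, 4.59 and 2.63 CPM and could not be separated from each other as neighbours in this order, and stromal barcodes lay below the cancer gate at 0.90 CPM.

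Cxcr2, the receptor for the neutrophil attractants Cxcl1, Cxcl2, Cxcl3 and Cxcl5, was nearly confined to neutrophils among the gates. It was counted at 490 CPM (414 to 577) with 144 UMIs in 59 of 113 neutrophils, and the next gate, other leukocytes, held 1 UMI at 3.12 CPM. Macrophages held 4 UMIs (0.34 CPM) and the cancer gate 15 UMIs (0.14 CPM), so neutrophils were 1454-fold (556 to 5407) above macrophages. A further 55 Cxcr2 UMIs lay in barcodes that passed several gates and were left out of every class. Among neutrophils, those with a Ccr1 UMI had 528 CPM of Cxcr2 and those without had 305 CPM, a log2 difference of 0.79 (0.02 to 1.67). The interval barely cleared 0, 92 of the 113 neutrophils were in the first group, and the median depths were 2629.5 and 2000 UMIs. In KPCA.FSTKO_hFSTL3 the neutrophil gate held 1 barcode, with no UMI of either gene.

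The promoters of these receptors are shown because Ccr1 and Cxcr2 shared the neutrophil gate while Ccr2 was nearly absent from it. The 250 bases before the transcription start were taken from RefSeq (GRCm38.p6), where 8 of the 9 receptors had an entry, Ccr7 being the exception. Capitals mark GAGGAA on either strand, the core letters bound by PU.1, a transcription factor of myeloid cells.
Cxcr2, chr1:74153744-74153993, plus strand: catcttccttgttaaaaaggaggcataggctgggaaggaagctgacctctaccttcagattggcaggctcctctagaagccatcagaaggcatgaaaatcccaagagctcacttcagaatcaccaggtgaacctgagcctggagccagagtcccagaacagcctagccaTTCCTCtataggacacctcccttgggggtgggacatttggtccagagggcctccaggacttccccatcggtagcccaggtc
Ccr1, chr9:123968693-123968942, minus strand: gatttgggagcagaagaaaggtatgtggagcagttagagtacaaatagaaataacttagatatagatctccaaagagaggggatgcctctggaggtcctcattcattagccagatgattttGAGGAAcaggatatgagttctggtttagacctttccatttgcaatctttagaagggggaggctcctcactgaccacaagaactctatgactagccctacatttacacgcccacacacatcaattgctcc
Ccr2, chr9:124101933-124102182, plus strand: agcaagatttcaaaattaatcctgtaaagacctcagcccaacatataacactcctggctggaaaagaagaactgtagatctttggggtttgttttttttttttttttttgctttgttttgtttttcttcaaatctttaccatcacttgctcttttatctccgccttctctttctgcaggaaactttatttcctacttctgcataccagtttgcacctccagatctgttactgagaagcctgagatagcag
The match lay 81 bases before the start of Cxcr2, on the opposite strand, and 129 bases before the start of Ccr1, and the Ccr2 window held none. For Ccr2 the RefSeq start differs from the GENCODE start given above, chr9:124101950. Most of its window lies inside the gene as GENCODE places it, so its lack of a match holds for the RefSeq start only. Over the 8 windows the letters occurred in 3 (Ccr1, Cxcr2 and Cxcr3), and in 23.25% of the windows of 32851 promoters. Of these 3, Cxcr3 had no UMI in the neutrophil gate of KPCA.FSTKO. Ccr2, without the letters, was 180 CPM in the macrophage/monocyte gate, which is also myeloid. A link of the letters to these levels was not tested. TTNCNNAA, the loose form of a C/EBP site, was in 5 of 8 (Ackr3, Ccr1, Ccr2, Cxcr3 and Cxcr4) and in 36.85% of all windows. TGANTCA (AP-1), TGTGGTT (RUNX), CACGTG (E-box) and the NF-kappaB motif, searched on both strands, were in none of the 8 and in 6.749%, 4.396%, 6.021% and 0.14% of all windows. A match describes letters in this window only.

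Ccr2, the receptor for Ccl2, Ccl7 and Ccl12 that brings monocytes from blood into tissue, was a macrophage/monocyte transcript. That gate had 180 CPM (173 to 188), with 2138 UMIs in 341 of 888 barcodes. Other leukocytes stood at 203 CPM and the 7 NK barcodes at 243 CPM from 7 UMIs, and these 3 gates did not differ beyond their counting intervals. T cells followed at 39.0 CPM, dendritic barcodes at 27.6 CPM and neutrophils at 6.81 CPM from 2 UMIs. The cancer and stromal gates were at 0.33 and 0.30 CPM. Ccr2 was unevenly spread within macrophages: the 89 barcodes with most of it, 1 in 10, held 58.4% of its UMIs. It was not alone in this, as the 89 barcodes with most of each held 68.5% of Cx3cr1, 77.1% of Ackr3 and 56.7% of Cxcr4. Ccr1 was the most evenly spread of these, at 29.6%.

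Cx3cr1, the receptor for the membrane-bound chemokine Cx3cl1, was spread over several leukocyte gates. Other leukocytes had 109 CPM (76.1 to 152), macrophages 84.4 CPM (79.3 to 89.8), T cells 59.7 CPM (39.0 to 87.4) and neutrophils 34.0 CPM (16.3 to 62.6). No neighbours in that order were separated. Set directly against macrophages, neutrophils were lower, at 0.40-fold (0.19 to 0.74), as were T and NK barcodes together, at 0.66-fold (0.43 to 0.98). Below neutrophils the level dropped to 5.02 CPM in endothelial barcodes. In the cancer gate Cx3cr1 had 355 UMIs in 190 of 3527 barcodes, 3.39 CPM, and 66 of these UMIs came from 1 barcode, without which the level was 2.76 CPM. After thinning it was found in 7.64% of macrophages and 0.29% of cancer barcodes. The other leukocytes included 13 barcodes of a cluster led by the mast cell protease genes Mcpt2, Cma1 and Cpa3, and these held 14 Cx3cr1 UMIs in 5 barcodes, 188 CPM (103 to 315), with no Ccr2 UMI.

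Within the macrophage/monocyte gate the receptors differed between groups of barcodes set by macrophage and monocyte markers. Of 888 barcodes, 669 had at least 4 macrophage markers and fewer than 3 monocyte markers, 157 were high for both, 27 were high for monocyte markers alone and 35 were low for both. Ccr2 was 403 CPM (330 to 487) in the 27 monocyte-high barcodes and 175 CPM (167 to 184) in the 669 macrophage-high barcodes. In the 157 barcodes high for both it was 181.5 CPM (165 to 200), near the macrophage-high level. Cx3cr1 was lower in monocyte-high barcodes, at 19.0 CPM (6.17 to 44.3) from 5 UMIs, than in macrophage-high barcodes, at 98.8 CPM (92.4 to 106). In those high for both it was 34.0 CPM (26.9 to 42.4). Cxcr4 was 49.3 CPM (44.9 to 54.2) in macrophage-high barcodes and 21.9 CPM (16.3 to 28.9) in those high for both, while Ackr3 was 57.0 CPM (52.2 to 62.1) and 126 CPM (112 to 142). In the 27 monocyte-high barcodes Cxcr4 was 22.8 CPM (8.36 to 49.6) from 6 UMIs. Ackr3 was 41.8 CPM (20.9 to 74.8) there from 11 UMIs, not separated from the macrophage-high level. Ccr1 was 263, 273 and 296 CPM in the macrophage-high, both-high and monocyte-high barcodes, and 146 CPM (103 to 201) in the 35 barcodes low for both.

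Macrophages were also compared by a UMI of one receptor. Barcodes with a Ccr2 UMI had more Cx3cr1 than those without, 95.1 against 77.0 CPM, a log2 difference of 0.30 (0.12 to 0.49), whereas the monocyte-high and macrophage-high groups differed in opposite directions for these receptors. Barcodes with a Ccr2 UMI had 30.9 CPM of Cxcr4 and those without had 52.3 CPM, a log2 difference of -0.76 (-1.04 to -0.48). For Ackr3 the values were 47.0 and 86.3 CPM, a log2 difference of -0.88 (-1.10 to -0.65). Barcodes with a Cx3cr1 UMI had more Cxcr4, 58.2 against 36.1 CPM, and less Ackr3, 47.0 against 82.1 CPM. Their median depths were close, 13312 and 12201 UMIs with and without Ccr2 and 13315 and 12119 with and without Cx3cr1. Ccr1 did not move with Ccr2, at 258 and 267 CPM. These are barcodes of 1 library and not replicates.

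Cxcr4, the receptor for Cxcl12 that holds leukocytes in marrow and guides growing vessels, had its highest levels in endothelial barcodes and neutrophils. Endothelial barcodes had 110 CPM (88.6 to 136) with 88 UMIs in 23 of 95 barcodes, and neutrophils 98.7 CPM (66.1 to 142) with 29 UMIs in 21 of 113. These gates were not separated. Macrophages stood at 43.6 CPM (39.9 to 47.5), so endothelial barcodes were 2.53-fold (2.00 to 3.18) above them. The B, other leukocyte, T and dendritic gates ranged from 45.0 down to 15.1 CPM without separation between neighbours. Stromal and cancer barcodes were at 0.75 and 0.19 CPM, a drop from the endothelial gate of 148-fold (60.9 to 466) and 578-fold (353 to 993). Within the endothelial gate the 10 barcodes with most Cxcr4 held 78.4% of it. No endothelial barcode was placed in a lymphatic subset.

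Ackr3, a scavenging receptor that binds Cxcl12 without G protein signalling, was found in endothelial, macrophage and cancer barcodes alike. It was highest in endothelial barcodes at 174 CPM (147 to 206), with 139 UMIs in 41 of 95 barcodes. Macrophages had 70.2 CPM (65.6 to 75.2), cancer barcodes 48.4 CPM (47.1 to 49.8) and stromal barcodes 9.43 CPM (7.25 to 12.1). Neutrophil, dendritic, B and NK gates held no UMI, which by a limit of 3 counts allows up to 10.2 CPM in neutrophils, and T cells held 1. The erythroid gate was at 60.1 CPM, but 19 of its 22 UMIs came from 1 barcode. After thinning, Ackr3 was found in 15.5% of endothelial, 5.70% of macrophage, 4.24% of cancer and 2.45% of stromal barcodes. Endothelial barcodes were 3.60-fold (3.02 to 4.27) above cancer and 18.5-fold (13.6 to 25.3) above stromal barcodes. Endothelial barcodes with a Cxcr4 UMI had 223 CPM of Ackr3 and those without had 120 CPM, with median depths of 14223 and 2813.5 UMIs.

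**Figure D2:**
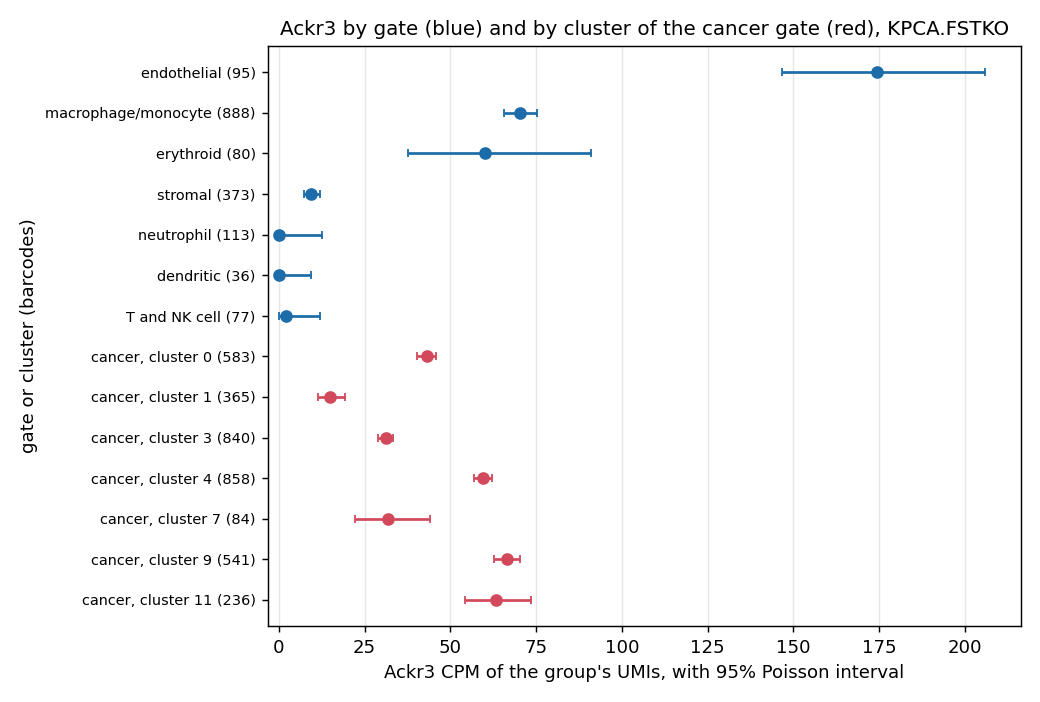
Ackr3 level (x axis, CPM) in gates of KPCA.FSTKO in blue and in the clusters of its cancer gate in red, with barcodes in brackets and bars for the 95% Poisson interval. The endothelial gate lay highest at 174 CPM, and the cancer clusters ran from 15.0 CPM in cluster 1 to 66.5 CPM in cluster 9.

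In cancer barcodes Ackr3 is given by cluster, as a description, since the clusters were drawn from the same counts. It was 66.5 CPM (62.8 to 70.3) in cluster 9, 63.3 CPM in cluster 11, 59.5 CPM in cluster 4, 43.1 CPM in cluster 0, 31.2 CPM in cluster 3 and 15.0 CPM (11.5 to 19.2) in cluster 1. Cluster 4 was led by Krt19, Epcam and Krt13. Cluster 1, the lowest, was led by Ccl5 and ribosomal protein genes such as Rps26 and Rps28 and had a median of 9417 UMIs per barcode, against 32596 in cluster 9 and 8365 in cluster 11. Cluster 7, with 84 cancer-gated barcodes at 31.8 CPM, was led by genes such as Postn and Thbs2 that are known from fibroblasts. Barcodes that also passed the cancer gate had been left out of the macrophage gate, which limits cancer markers there, and the source of its Ackr3 was not tested. The 12 cancer markers summed to 256 CPM in the 210 macrophage barcodes with an Ackr3 UMI and to 276 CPM in the 678 without. Their most abundant gene was Hmga2 in both groups, 10 and 11 of the 12 had a UMI, and the 13 macrophage/monocyte markers summed to 14574 and 15238 CPM.

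Ccr7, which leads mature dendritic cells and naive lymphocytes to lymph nodes, was the rarest receptor by barcodes apart from Cxcr3. Dendritic barcodes had 284 CPM (234 to 342), but the 113 UMIs came from 6 of 36 barcodes and 38 from 1 of them. The 3 dendritic barcodes placed as mature held 48 Ccr7 UMIs, 1713 CPM (1263 to 2271), and 9 of no single subset held 64 UMIs in 2 barcodes. The 18 type 1 barcodes held 1 UMI. The 6 Ccr7 barcodes held no UMI of Ccr1 or Ccr2, and the other 30 had 60.7 CPM of Ccr1 and 31.8 CPM of Ccr2. The upper limits of the log2 ratios, 0.36 and 1.41, lie above 0, so neither was separated from no change. B, other leukocyte and T cell gates followed at 64.3, 59.3 and 57.4 CPM and could not be separated. Macrophages and neutrophils held no UMI, which allows up to 0.25 CPM in macrophages.

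Cxcr6, the receptor for Cxcl16, was the leading receptor of T cells in this list. T cells had 184 CPM (146 to 229) with 80 UMIs in 30 of 70 barcodes, and the 7 NK barcodes 173 CPM from 5 UMIs. Other leukocytes followed at 21.8 CPM, and macrophages at 1.27 CPM. After thinning it was found in 22.9% of T cells and in 1 of 3489 cancer barcodes. The cancer gate nonetheless held 43 UMIs in 40 barcodes, 0.41 CPM. By subset, Cxcr6 was 157 CPM (111 to 216) in 28 CD8 barcodes and 291 CPM (198 to 413) in 19 Cd4 barcodes without Foxp3, and it had no UMI among the 30365 of 7 barcodes with Foxp3, the marker of regulatory T cells, an exact interval of 0 to 121 CPM that overlaps that of the CD8 barcodes.

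Cxcr3, the receptor for the interferon-induced chemokines Cxcl9 and Cxcl10, had 35 UMIs in KPCA.FSTKO and its levels are imprecise. T cells had 36.7 CPM (21.0 to 59.6) from 16 UMIs, dendritic barcodes 17.6 CPM from 7 and NK barcodes 69.3 CPM from 2, and these gates were not separated. The 18 type 1 dendritic barcodes held 6 of the 7 dendritic UMIs. Macrophages had 0.34 CPM from 4 UMIs and the cancer gate 1 UMI. Among the 77 T and NK barcodes, 33 had Cxcr6, 15 had Cxcr3 and 5 had both. T cells also carried Cx3cr1, with 86.8 CPM (53.7 to 133) in CD8 and 37.6 CPM (10.2 to 96.2) in Cd4 barcodes. Ccr7 was 41.3 CPM in CD8 and 131 CPM in Cd4 barcodes, where 14 UMIs lay in 4 barcodes. The 7 Foxp3 barcodes held 9 Ccr2 UMIs, 296 CPM (136 to 563), against 5 UMIs and 20.7 CPM in CD8 barcodes.

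Of 14 further receptors listed from the same family, 8 had enough UMIs in KPCA.FSTKO and 6 of these (Ccr8, Ccr9, Ccrl2, Cxcr5, Xcr1 and Cmklr1) were more than 2-fold higher in leukocytes than in cancer barcodes, where 20.9% of all genes tested were. The median log2 ratio of the 8 was 5.25, against -0.30 over all genes tested. Ccrl2, a chemerin-binding receptor, was 769 CPM in neutrophils and 108 CPM in macrophages. Xcr1, the receptor of type 1 dendritic cells, was 171 CPM in dendritic barcodes, Cxcr5, which guides B cells to follicles, was 64.3 CPM in B cells, and Ccr8 was 45.2 CPM in T and NK barcodes. Ccr10 and Ackr4 lay between the thresholds, and Ccr3, Ccr4, Ccr6, Cxcr1, Ackr1 and Ackr2 had too few UMIs.

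The 19 listed ligands of the 9 receptors were placed beside them. Of 17 with enough UMIs, 14 were more than 2-fold higher in leukocytes than in cancer barcodes and 3 were lower (Cx3cl1, Cxcl12 and Cxcl5), where 20.9% and 29.8% of all genes tested were. Their median log2 ratio was 3.61, against -0.30 over all genes. For Ccr1, Ccl6 was 4772 CPM and Ccl9 1129 CPM in macrophages, and Ccl3 was 2642 CPM in neutrophils. For Cxcr2, Cxcl2 was 20686 CPM in neutrophils and 872 CPM in macrophages, whereas Cxcl5 was 26.4 CPM in cancer barcodes and Cxcl1 was 96.7 CPM in stromal barcodes. Neutrophils thus held high levels of both Cxcr2 and one of its ligands. For Ccr2, Ccl2 was 368 CPM in macrophages, 196 CPM in stromal and 58.2 CPM in cancer barcodes. For Cxcr6, Cxcl16 was 324 CPM in dendritic barcodes and 201 CPM in macrophages, and 8.61 CPM in T and NK barcodes. For Cxcr3, Cxcl9 was 126 CPM in dendritic barcodes and 104 CPM in macrophages. The ligand of Cxcr4 and Ackr3, Cxcl12, was highest in endothelial barcodes at 89.1 CPM and stromal barcodes at 68.3 CPM, and was 8.69 CPM in cancer barcodes and 0.34 CPM in macrophages. Cx3cl1 was 8.23 CPM in stromal, 4.20 CPM in cancer and 3.76 CPM in endothelial barcodes and 0.34 CPM in macrophages. The Ccr7 ligands were nearly undetected, with 12 UMIs of Ccl19 in the stromal gate and none of Ccl21a in any gate.

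**Figure D3:**
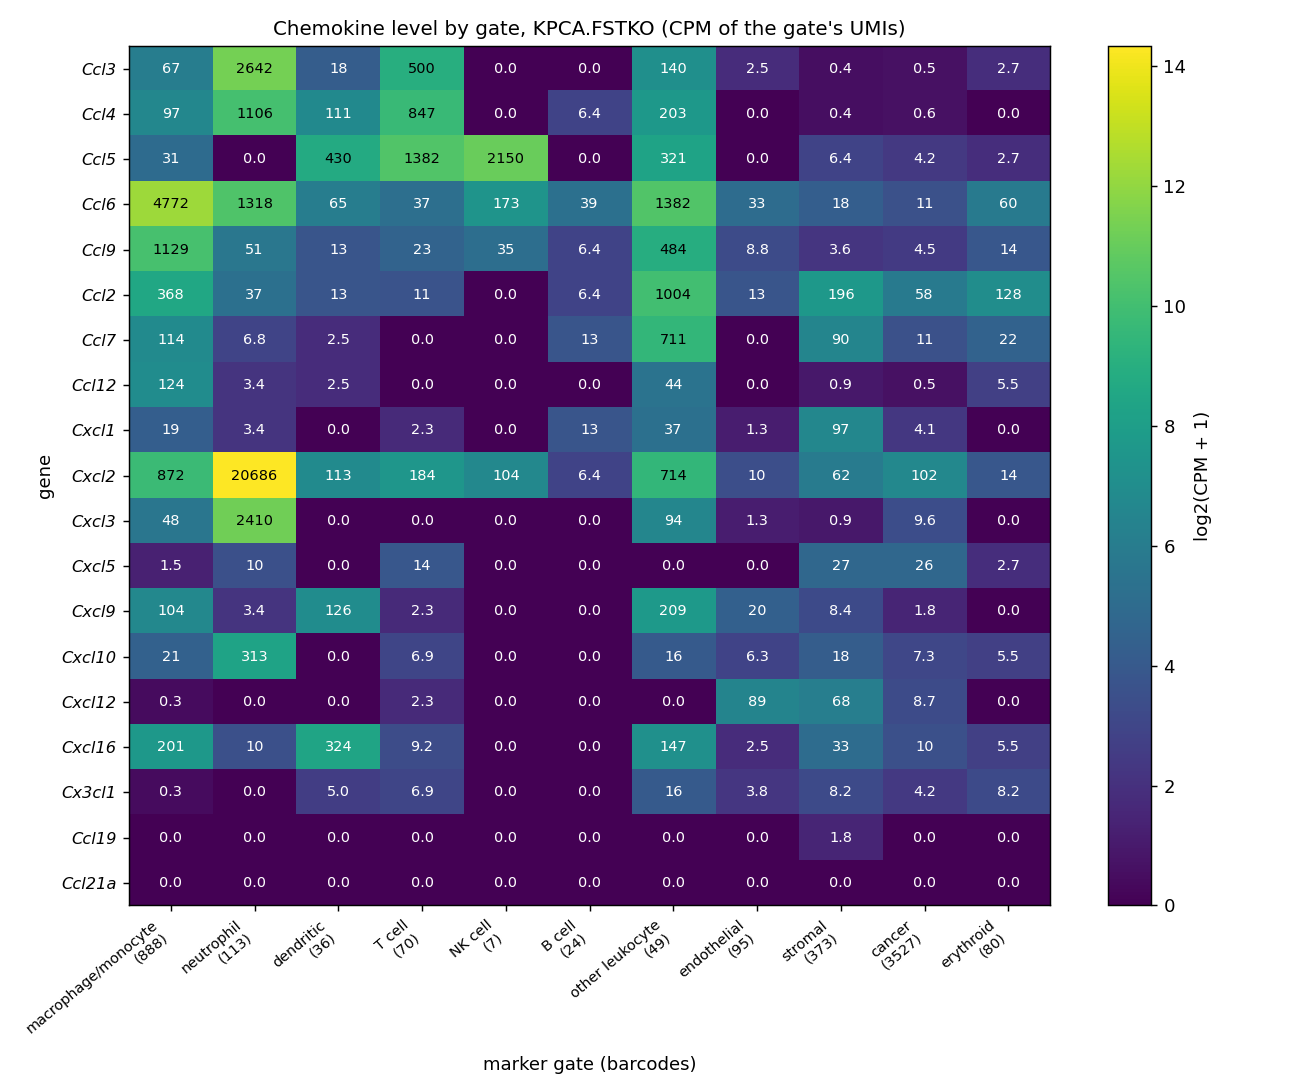
Level of the 19 listed chemokines (rows) in each marker gate of KPCA.FSTKO (columns, barcodes in brackets), as CPM in the cells and as log2(CPM + 1) in the colour. Cxcl2 in neutrophils was the highest at 20686 CPM, and Cxcl12 had its highest levels in endothelial and stromal barcodes, at 89.1 and 68.3 CPM.

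Across the 7 gates of KPCA.FSTKO with at least 50 barcodes, the genes whose log2(CPM + 1) ran most like each receptor were named from 13838 genes of at least 100 UMIs, or 13839 for Ccr7 and Cxcr3. These are descriptions over 7 points from 1 library, with no p, and the points differ in depth. For Ccr1 they were Hpgds (Pearson r 0.988), Fgr and Alox5ap, and for Ccr2 Cd86 (0.988), Abcg3 and Lat2. For Cxcr2 they were Stfa2l1 (0.982), Gm14966 and Rnf113a2, for Cxcr4 Abcg1 (0.992), Entpd1 and Slc15a2, and for Cx3cr1 Ero1lb (0.984), Evi2a and Gpr34. For Cxcr6 they were Cd247 (0.996), Cd226 and Grap2, and for Cxcr3, on 21 UMIs, Grap2 (1.000), Gzmf and Icos. Ackr3 had the loosest likeness of the 9, to Tmem51 (0.936), Abcf2 and Msh5. The value for Ccr7 rests on 39 UMIs, since the dendritic gate was below 50 barcodes, and named Bcl11b, Gzmb and Gzmc (0.949 each). Among the receptors, Cxcr3 and Cxcr6 (0.99) and Ccr2 and Cx3cr1 (0.91) ran most alike over these gates, apart from the pairs with Ccr7.

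Between the libraries, the macrophage/monocyte gates were compared, 888 barcodes in KPCA.FSTKO and 135 in KPCA.FSTKO_hFSTL3. Ccr2 stood at 180 CPM in the first and 363 CPM (340 to 387) in the second, a log2 ratio of 1.01 (0.90 to 1.12). For Cx3cr1 the log2 ratio was 1.08 (0.92 to 1.24), between 84.4 and 178 CPM (162 to 196). Both were near 2-fold higher in the library with human FSTL3. Of the gate's own markers, Chil3 stood at 3282 and 878 CPM, Csf1r at 314 and 458 CPM and C1qa at 3181 and 2997 CPM. Their part in the receptor ratios was not tested. Of 5 receptors with enough UMIs, Ccr2 and Cx3cr1 passed 2-fold, where 3.85% of 12015 genes were higher. No receptor was lower by that much, where 5.98% were. The median log2 ratio of the 5 was 0.15, against 0.08 over all genes tested. Ccr1, with a log2 ratio of 0.15 (0.03 to 0.26), stood at 263 and 292 CPM. Cxcr4 was 43.6 and 37.3 CPM, and Ackr3 70.2 and 60.4 CPM, with intervals of the ratio that included no change. Ccr2 had a UMI in 38.4% and 51.1% of barcodes and Cx3cr1 in 31.9% and 55.6%, at median depths of 12764.5 and 19106 UMIs. After thinning, which rests on 1 random draw, Ccr2 was found in 118 of 877 and 33 of 132 barcodes (11.3 to 15.9% and 17.9 to 33.3%), and Cx3cr1 in 67 and 16 (5.97 to 9.60% and 7.09 to 18.9%), so that the intervals overlapped for Cx3cr1 and not for Ccr2.

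**Figure D4:**
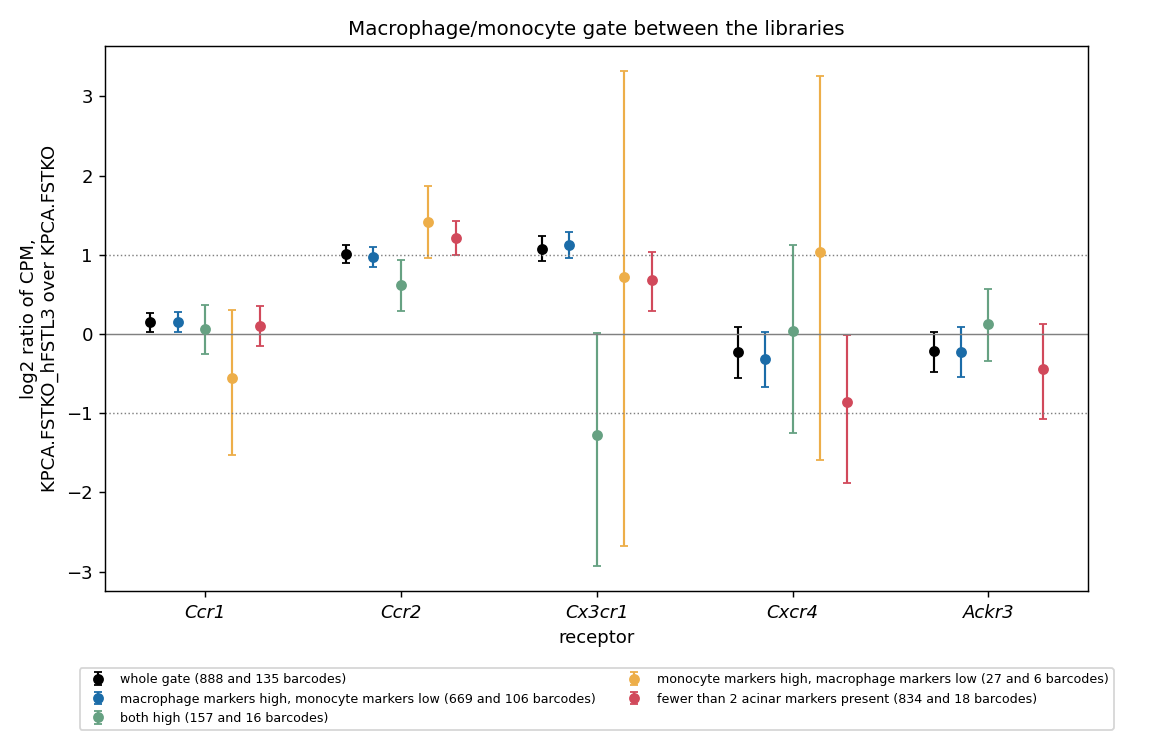
Log2 ratio of CPM, KPCA.FSTKO_hFSTL3 over KPCA.FSTKO (y axis), for 5 receptors in the macrophage/monocyte gate and in its subsets, with 95% counting intervals and dotted lines at 2-fold. Ccr2 lay above 0 in each subset shown, from 0.62 to 1.42, whereas Cx3cr1 was 1.12 in macrophage-high barcodes and -1.27 in those high for both marker groups. Ackr3 has no point for the monocyte-high subset, where it had no UMI in KPCA.FSTKO_hFSTL3.

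Both ratios sat at the 2-fold line. Over 12 other settings Ccr2 ranged from 0.93 to 1.06 and Cx3cr1 from 0.99 to 1.11, and the number of receptors past 2-fold ranged from 0 to 3, the highest with a minimum of 10 UMIs, where Cxcr6 entered from 15 and 1 UMIs. Within the gate, Ccr2 had a log2 ratio of 0.97 (0.84 to 1.10) in macrophage-high barcodes, 0.62 (0.29 to 0.94) in barcodes high for both and 1.42 (0.96 to 1.87) in the 27 and 6 monocyte-high barcodes. In the 35 and 7 barcodes low for both it was 2.63 (1.95 to 3.34), from 30 and 49 UMIs. Cx3cr1 was 1.12 (0.95 to 1.29) in macrophage-high barcodes, at 98.8 and 215 CPM, and -1.27 (-2.93 to 0.01) in barcodes high for both, from 79 and 5 UMIs. Acinar transcripts moved with the library, and 12 of 13 acinar markers were higher in the KPCA.FSTKO_hFSTL3 gate. Their sum was 76.7 CPM in KPCA.FSTKO and 905 CPM in KPCA.FSTKO_hFSTL3. The most abundant was Ctrb1, at 188 CPM in KPCA.FSTKO_hFSTL3, and Amy2a2 was at 0 in both. Stromal markers summed to 149 and 68.6 CPM (5 of 18 higher) and cancer markers to 270 and 162 CPM (3 of 12 higher). The part of the stromal and cancer lists in the ratios was not tested. Among macrophages with fewer than 2 acinar markers present, 834 and 18 barcodes, Ccr2 was 181 and 420 CPM (log2 ratio 1.22, 1.00 to 1.43) and Cx3cr1 85.7 and 137 CPM (0.68, 0.29 to 1.04). Genotype, library and the pool of tumors cannot be told apart.

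Lymphocytes were too few for firm values between libraries, 77 T and NK barcodes against 10. Of 5 receptors with enough UMIs, Cxcr3 was past 2-fold higher in KPCA.FSTKO_hFSTL3, where 7.79% of 4738 genes were, and Ccr7, Cxcr6 and Cx3cr1 were past 2-fold lower, where 18.2% were. Cxcr6 was 183 CPM (146 to 226) in KPCA.FSTKO and 36.3 CPM (7.49 to 106) in KPCA.FSTKO_hFSTL3, where its 3 UMIs came from 1 barcode. Ccr7 had 25 UMIs in 9 barcodes and none in the 10. Cx3cr1 had 26 UMIs and 1, with an interval of the log2 ratio from -7.57 to 0.40 that included no change. Cxcr3 was 38.7 and 84.7 CPM, with an interval of the log2 ratio from -0.37 to 2.46, and its 7 UMIs in KPCA.FSTKO_hFSTL3 all came from 1 barcode. The sum of the acinar markers was 121 and 1488 CPM in these gates, and that of the macrophage/monocyte markers 544 and 774 CPM. The cancer markers summed to 639 and 169 CPM, the stromal markers to 706 and 460 CPM and the T cell markers to 3472 and 2674 CPM. The part of these lists in the receptor values was not tested.

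**Figure D5:**
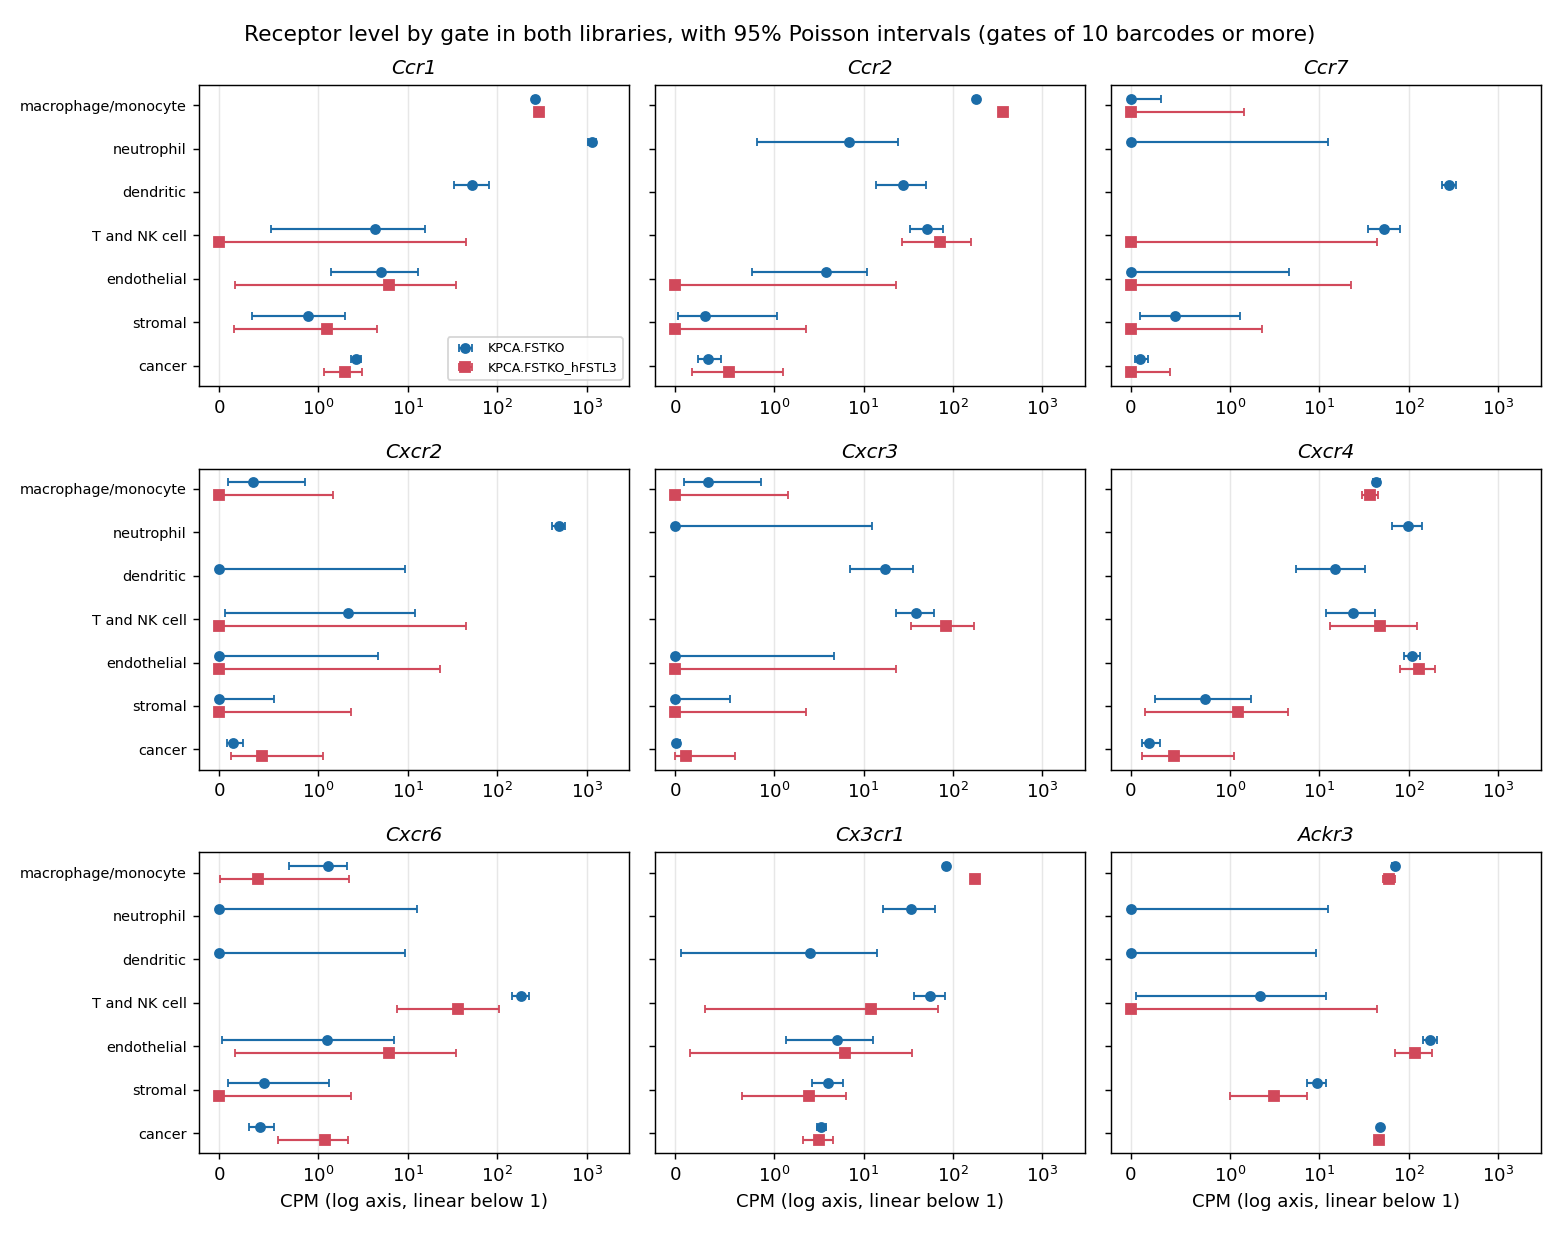
Receptor level (x axis, CPM on a log axis that is linear below 1) in 7 gates, where they held at least 10 barcodes, for KPCA.FSTKO in blue and KPCA.FSTKO_hFSTL3 in red, with 95% Poisson intervals. Ccr2 and Cx3cr1 in the macrophage/monocyte gate, Cxcr6 in T and NK and in cancer barcodes, and Ackr3 in stromal barcodes had intervals that did not overlap between libraries. The stromal Ackr3 intervals nearly met, at limits of 7.25 and 7.23 CPM, and 13 of its 63 UMIs in KPCA.FSTKO came from 1 barcode.

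The other leukocyte gate, 49 and 14 barcodes, also had intervals that did not overlap. Cx3cr1 was lower there in KPCA.FSTKO_hFSTL3, at 109 CPM (76.1 to 152) and 8.22 CPM (0.21 to 45.8). This gate was a mixture of clusters that was not matched for make-up between libraries, and 14 of its 35 Cx3cr1 UMIs in KPCA.FSTKO came from the cluster of mast cell protease genes, which had 2 barcodes in all of KPCA.FSTKO_hFSTL3. Ackr3 was 12.5 CPM (3.40 to 31.9) and 140 CPM (81.4 to 224), and Ccr7 59.3 CPM (35.7 to 92.6) and 197 CPM (126 to 294), where 17 of 19 and 24 of 24 Ccr7 UMIs came from 1 barcode of each library. In endothelial barcodes, 95 and 13, Cxcr4 was 110 and 130 CPM and Ackr3 174 and 118 CPM (71.0 to 184), and neither ratio was separated from no change. Stromal Ackr3 was 9.43 CPM (7.25 to 12.1) from 63 UMIs in KPCA.FSTKO, 13 of them from 1 barcode, and no value without that barcode was taken. In KPCA.FSTKO_hFSTL3 it had 5 UMIs, an interval of 1.01 to 7.23 CPM that nearly met the one in KPCA.FSTKO. The log2 ratio of these was -1.61 (-3.28 to -0.31). The make-up of the stromal gate was not matched either. Ackr3 was 9.14 CPM, 19.4 CPM and at 0 UMIs in stromal barcodes of the clusters led by Slit3, Prg4 and Rgs5 in KPCA.FSTKO, and the mural markers Rgs5, Cspg4 and Acta2 went from 185, 25.4 and 611 CPM to 410, 89.2 and 1413 CPM between the libraries. The 13 acinar markers summed to 58.2 and 620 CPM in these gates, 12 of them higher in KPCA.FSTKO_hFSTL3, and the part of either in the Ackr3 ratio was not tested. Cancer Ackr3 was 48.4 CPM in 3527 barcodes and 46.9 CPM (42.6 to 51.6) in 239, side by side, a log2 ratio of -0.05 (-0.19 to 0.10). The cancer gate of KPCA.FSTKO included the Postn cluster described above, and its make-up by cluster was not matched between libraries. Cx3cr1 in the same gates was 3.39 and 3.15 CPM, and Cxcr6 had 43 UMIs (0.30 to 0.55 CPM) and 11 UMIs (0.60 to 2.14 CPM). The 8 T cell markers summed to 0.72 and 1.74 CPM in these cancer gates, 6 of them higher in KPCA.FSTKO_hFSTL3. The 13 acinar markers summed to 29.1 and 415 CPM there, and the part of either list in the Cxcr6 values was not tested. In the mixed acinar-bearing barcodes of KPCA.FSTKO_hFSTL3 lay 70.0% of that library's 10628 receptor UMIs. Their Ccr2 level, 36.6 CPM, was 0.10-fold that of its macrophage/monocyte gate and 67.3-fold that of its cancer gate. Ackr3 there was 31.7 CPM, 0.53-fold the macrophage and 0.68-fold the cancer level. Only 23.5% of the receptor UMIs of KPCA.FSTKO_hFSTL3 were in leukocyte gates, and 28.3% without Ackr3. With a stricter barcode filter, mitochondrial UMIs under 10% and at least 500 genes, the share was 47.1%.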

How the data were processed

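Whole tumors were digested with collagenase I and DNase, passed through a 70 µm strainer and run on a 10x Genomics 3′ kit. The authors deposited raw UMI counts per gene and barcode for each library, made with Cell Ranger (3.1.0 per the labels, 7.2.0 in the file header) on GRCm38. KPCA.FSTKO was deposited with 7582 barcodes and KPCA.FSTKO_hFSTL3 with 4244. These numbers equal the cell counts stated for after quality control, although the filters below still removed barcodes, and the reason is not given in the sources used here. Kept barcodes had under 20% mitochondrial UMIs, over 200 genes and under 8000, which removed 805 and 203.

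A marker was present in a barcode at 100 CPM or more. Gates required 4 markers for macrophage/monocyte, stromal and cancer barcodes, 3 for neutrophil, other leukocyte, endothelial and erythroid, 2 for dendritic, T, NK and B cells and 8 for acinar-bearing barcodes. Markers present in over 15% of cancer-marked barcodes (6) were left out. Barcodes that passed several gates were kept apart, which was the only treatment of doublets in the main values. Counts were summed per gate with exact Poisson intervals, shares have exact binomial (Clopper-Pearson) intervals, and ratios have conditional binomial intervals, all at 95%. A count of 0 was given a limit of 3 counts. Genes with at least 20 UMIs in the 2 groups together were called higher or lower past 2-fold, with no p-value. Shares were also taken after thinning each barcode to 1000 UMIs, leaving out shallower ones. The 21 clusters came from 2000 variable genes, 20 principal components and a resolution of 1.

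All 9 receptors were named in every class, with 14 further receptors, 19 ligands and the 3 genes most like each receptor. The receptors, lists, gates and thresholds were chosen with earlier results of these data known. Marker numbers per gate were set after marker levels had been looked at. The contrast was tested on simulated data. The software was scanpy 1.11.5, matplotlib 3.10.9, scipy 1.17.1, numpy 2.4.6 and pandas 2.3.3 under Python 3.11.15. The effect of 11 other settings, and of 1 added after seeing the data, is given in the closing section. Some items are not reported here.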

Additional observations from a re-analysis of the deposited data

Results flagged for a closer look

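Receptor UMIs were also found in barcodes outside the filters or outside the named cell classes. Of these, the acinar-bearing ones were set beside the gates in the report, and those of several gates entered 1 added setting. In KPCA.FSTKO, the 805 barcodes outside the filters held 1719 UMIs of the 9 receptors, 1306 of them Ackr3. The 349 barcodes that passed several gates held 991, the 1126 that passed none held 462 and the 40 acinar-bearing ones held 17. In KPCA.FSTKO_hFSTL3, the 203 barcodes outside the filters held 764, with a median of 58828 UMIs per barcode. The 64 that passed several gates held 89, the 148 that passed none held 31, and the 3325 acinar-bearing ones held 7442. Each of these lay above the 3 counts that a count of 0 allows.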

How the results depend on the processing

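The share of receptor UMIs in leukocytes of KPCA.FSTKO, 53.2%, became 48.4% without a barcode filter, 57.6% with clusters named by the same markers, 54.2% with 1 more marker required, 54.4% after removal of the barcodes called doublets by Scrublet (90 barcodes, or 1.33%, and 1 barcode of KPCA.FSTKO_hFSTL3, where it cannot be taken to have worked) and, chosen after seeing the data, 56.7% when barcodes of several gates were counted by their leukocyte gate. In KPCA.FSTKO_hFSTL3 it went from 23.5% to 22.1%, 47.1% (mitochondrial share under 10% and at least 500 genes) and 27% (clusters). Of the macrophage/monocyte receptors, 2 passed 2-fold between libraries. That number was 1 with the stricter filter, 1 more marker, doublets removed or the barcode with most UMIs left out, 0 with the mean of per-barcode CPM and 3 with a minimum of 10 UMIs. The 4 in lymphocytes became 5 with a minimum of 10 UMIs, 3 with the mean of per-barcode CPM and 1 without the barcode with most UMIs, where 2 receptors had enough UMIs. A minimum of 100 UMIs left no receptor in lymphocytes. The Ackr3 log2 ratio of leukocytes over cancer was -0.05 with the mean of per-barcode CPM and kept its sign in the 11 others. Of the values for single receptors, 7 moved and 159 did not. With the mean of per-barcode CPM, the log2 ratio of leukocytes over cancer went from 6.28 to 8.38 for Cxcr2, from 8.96 to 7.96 for Ccr2 and from 6.64 to 7.06 for Ccr1. No paired analysis was possible because each genotype had 1 library, and for that reason no replicate could be left out. Small gates limit the precision: by the limit of 3 counts, a count of 0 allows up to 104 CPM in the 7 NK barcodes, 19.3 CPM in the 24 B cells and 10.2 CPM in the 113 neutrophils of KPCA.FSTKO.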
